A study of Mus musculus with 4 samples.

Results

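The contractile genes described here are 10 genes of smooth muscle, part of which myofibroblasts also express, namely *Acta2*, *Actg2*, *Tagln*, *Cnn1*, *Myh11*, *Myl9*, *Tpm1*, *Tpm2*, *Cald1* and *Lmod1*. They were chosen by name and looked up among 63759 transcripts, which carry 25742 named genes. All 10 were found, with 33 transcripts between them, and each gene is represented by the transcript with the longest gene body. RNA-seq of total RNA had been done in MEF, cultured fibroblasts of the mouse embryo, and the table holds 1 column for each of 4 conditions, called a library here. The conditions were *Hmga2*+/+ Ctrl, *Hmga2*+/+ TGFB1, *Hmga2*-/- Ctrl and *Hmga2*-/- TGFB1. All cells were C57BL/6 MEF of embryonic day 15.5, taken from the body without head, limbs, tail and inner organs and immortalized with SV40, and all were kept overnight in 1% FCS before treatment. TGFB1 MEF then had 10 ng/ml of the human recombinant protein for 24 h, and Ctrl MEF had water. Since each genotype is represented by 1 untreated and 1 treated column, a difference between genotypes and a difference between cell lines cannot be told apart.

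Fibroblasts exposed to TGFB1 can turn into myofibroblasts, which make the matrix of healing wounds and of fibrotic tissue and pull on it. The pulling force comes from stress fibres, in which filaments of actin slide against myosin II. *Acta2* encodes alpha-smooth muscle actin, the usual marker of a myofibroblast, and *Actg2* the gamma actin of visceral smooth muscle. Tropomyosins (*Tpm1*, *Tpm2*) lie along the actin filament, while transgelin (*Tagln*), calponin (*Cnn1*) and caldesmon (*Cald1*) bind to it, and caldesmon and calponin restrain its contact with myosin. *Myh11* encodes the heavy chain of smooth muscle myosin, *Myl9* a regulatory light chain of myosin II, and leiomodin (*Lmod1*) starts new actin filaments in smooth muscle. Many of these genes are driven by serum response factor (SRF), which binds a DNA element called the CArG box, by TEAD factors at the MCAT box and by SMAD proteins, which carry the TGFB1 signal.

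Levels are given in RPKM, which the authors deposited: reads on a transcript divided by its length in units of 1000 bases and by the mapped reads in units of 1000000. The depth of the libraries was inferred from the RPKM values, as described with the processing, at 56143400 to 57296600 mapped reads. At this depth, 3 reads on a transcript of 1000 bases are worth 0.0524 to 0.0534 RPKM. The study's methods speak of sequencing in duplicate within a single experiment, but duplicates are not separate in the table, so no spread between them can be given, and no test and no p-value are given. A difference is called where it is at least 1.5-fold, the limit in the study's methods, and it comes with an interval at the 95% level that covers counting error only, not the spread between cultures. The targeted gene *Hmga2* had 3527 reads in the *Hmga2*+/+ Ctrl library, 9952 in the *Hmga2*+/+ TGFB1 library and 0 in both *Hmga2*-/- libraries. The TGFB1 target *Ccn2* went from 13.2 to 173 RPKM in *Hmga2*+/+ MEF and from 24.9 to 359 RPKM in *Hmga2*-/- MEF, and *Smad7* from 6.40 to 10.6 RPKM and from 6.67 to 14.6 RPKM. All 11 fibroblast markers, such as *Vim* and *Col1a1*, were above 1 RPKM in at least 1 library, with summed levels from 2417 to 2961 RPKM. Of these markers, 5 were at least 1.5-fold lower under TGFB1 in both genotypes, namely *Dcn* (0.372-fold and 0.245-fold), *S100a4* (0.239-fold and 0.356-fold), *Pdgfra* (0.458-fold and 0.565-fold), *Lum* (0.335-fold and 0.347-fold) and *Col3a1* (0.614-fold and 0.596-fold). *Fn1* (1.76-fold and 1.90-fold) and *Thy1* (1.61-fold and 2.16-fold) were higher in both, and *Pdgfrb* in *Hmga2*-/- MEF (1.59-fold). Of 18436 genes above 0 in at least 1 library, 16.3% were at least 1.5-fold higher and 26.8% lower in *Hmga2*+/+ MEF. The shares were 17.9% and 25.6% in *Hmga2*-/- MEF.

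The promoters of *Acta2*, *Myl9* and *Tpm1* are printed here to show a gene well past the 1.5-fold limit under TGFB1, one that did not reach it and one just past it, as described further on. The 250 bases before the start are given 5′ to 3′ on the strand of the gene, from RefSeq on GRCm38.p6, the build called mm10. Capitals mark a CArG box, counted also where 1 base of its A/T core is G or C, or an MCAT box. *Acta2* is on the minus strand at chr19:34255374-34255623, *Myl9* on the plus strand at chr2:156775214-156775463, and *Tpm1*, at its start of exon 1a, on the minus strand at chr9:67049214-67049463.
Acta2: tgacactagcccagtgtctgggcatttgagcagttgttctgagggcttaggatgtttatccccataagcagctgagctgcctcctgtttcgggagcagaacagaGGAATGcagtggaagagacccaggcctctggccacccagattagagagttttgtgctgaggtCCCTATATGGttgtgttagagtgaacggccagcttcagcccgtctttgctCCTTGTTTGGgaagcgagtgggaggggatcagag
Myl9: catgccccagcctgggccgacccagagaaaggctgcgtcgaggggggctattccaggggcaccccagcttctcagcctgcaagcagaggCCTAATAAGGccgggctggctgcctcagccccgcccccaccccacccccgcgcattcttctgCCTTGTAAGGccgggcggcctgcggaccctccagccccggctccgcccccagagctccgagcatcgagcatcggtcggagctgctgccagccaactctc
Tpm1: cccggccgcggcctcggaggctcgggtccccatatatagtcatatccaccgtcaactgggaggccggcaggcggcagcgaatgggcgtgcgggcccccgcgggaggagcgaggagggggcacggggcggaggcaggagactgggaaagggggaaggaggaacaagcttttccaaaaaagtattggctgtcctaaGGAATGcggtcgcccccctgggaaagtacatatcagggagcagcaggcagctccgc

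RefSeq entries were found for 7 of the 10 genes, with 8 promoters between them, and not for *Tagln*, *Actg2* and *Myh11*. Motifs were searched on both strands of the 250 bases. In *Acta2*, 2 CArG boxes with 1 base off began 84 and 34 bases before the start, and an MCAT box (CATTCC, printed as its complement) began 146 bases before it. In *Myl9*, a full CArG box began 161 bases before the start and one with 1 base off 99 bases before it, whereas *Tpm1* had an MCAT box at 56 bases and no CArG box in this window. A full CArG box was present in 1 of the 7 genes and in 1.47% of 32851 promoters of the same length, and a CArG box with at most 1 base off, which includes the full ones, in 2 of 7 and in 8.59%. The MCAT box was present in 4 of 7 genes (*Acta2*, *Cald1*, *Lmod1* and *Tpm1*) and in 12.6% of promoters, and the SMAD-binding letters CAGAC in 2 of 7 (*Acta2* and *Cald1*) and in 42.2%. A gene was counted where any of its promoters matched, whereas the percentages are shares of single promoters. The *Cald1* matches lie in its promoter at chr6:34598254-34598503. Another *Cald1* promoter, at chr6:34709194-34709443, had none of these motifs. All these motifs are matches of letters and were not tested as binding sites.

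In *Hmga2*+/+ MEF, 5 of the 10 genes were at least 1.5-fold higher under TGFB1, and 2 were lower. The higher ones were the actins *Acta2* and *Actg2*, transgelin, calponin and *Tpm1*. The lower ones were *Myh11*, on 9 to 20 reads per library, and *Lmod1*, on 12 to 121 reads, and *Myl9*, *Tpm2* and *Cald1* changed by less than 1.5-fold. Of 18436 genes above 0 in at least 1 library, 16.3% were at least 1.5-fold higher and 26.8% at least 1.5-fold lower in the same comparison. In *Hmga2*-/- MEF, the same 5 genes were higher and the same 2 lower, where 17.9% of all genes were higher and 25.6% lower. Among the 11314 genes that reached 1 RPKM in any library, 12.1% were higher and 17.6% lower in *Hmga2*+/+ MEF, and 13.7% higher and 15.9% lower in *Hmga2*-/- MEF. Of the 8 contractile genes among them, 5 were higher and 0 lower in each genotype. With a limit of 2-fold, 3 of the 10 were higher and 1 lower in each genotype, where 10.4% of all genes were higher and 17.9% lower in *Hmga2*+/+ MEF and 11.6% higher and 17.7% lower in *Hmga2*-/- MEF. The lower gene was *Lmod1* in *Hmga2*+/+ MEF and *Myh11*, within counting error, in *Hmga2*-/- MEF. The median log2 change of the 10 genes was 0.30 in *Hmga2*+/+ MEF and 0.26 in *Hmga2*-/- MEF, beside -0.06 and -0.01 over all genes. In bulk RNA, more myofibroblasts and more of this RNA in each fibroblast cannot be told apart.

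**Figure D1:**
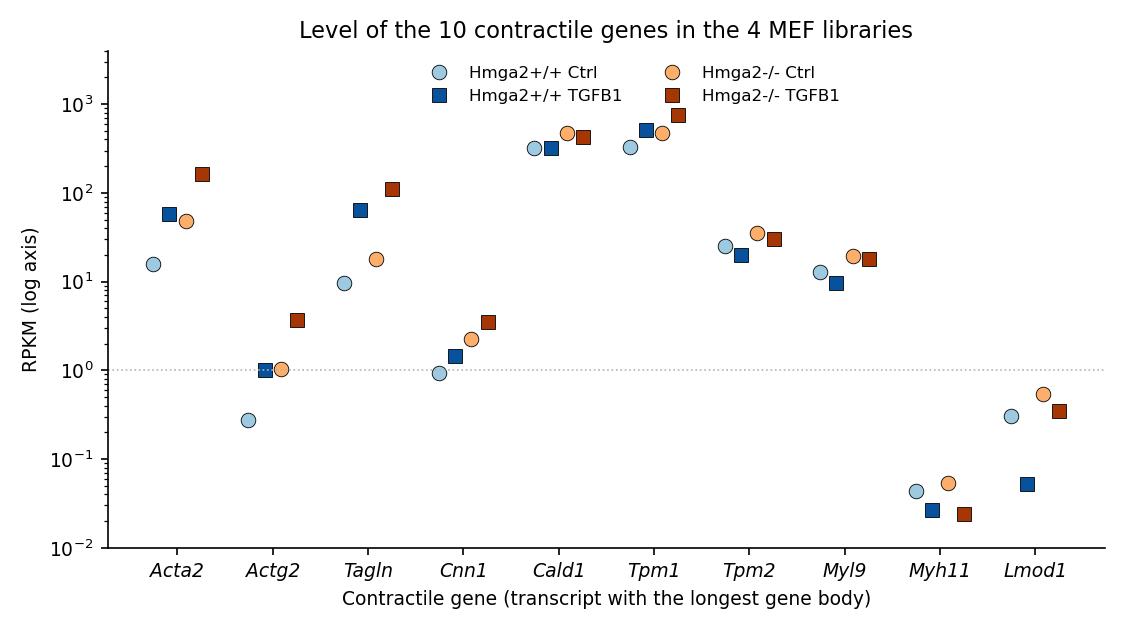
Level of each contractile gene in RPKM on a log axis, 1 point per library, with circles for Ctrl, squares for TGFB1, blue for *Hmga2*+/+ and orange for *Hmga2*-/-. The *Hmga2*-/- TGFB1 library holds the highest value of *Acta2* (165 RPKM) and *Tagln* (109 RPKM), while *Myh11* stays between 0.0240 and 0.0540 RPKM.

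Alpha-smooth muscle actin was among the genes with the widest range. *Acta2* (chromosome 19, minus strand, 34240336 to 34255373) had 15.9 RPKM in the *Hmga2*+/+ Ctrl library, 58.3 in *Hmga2*+/+ TGFB1, 48.2 in *Hmga2*-/- Ctrl and 165 in *Hmga2*-/- TGFB1. Each condition stood apart from the next by more than counting error, and the untreated *Hmga2*-/- culture was already close to the treated *Hmga2*+/+ culture. TGFB1 was accompanied by a 3.68-fold higher level in *Hmga2*+/+ MEF (log2 change 1.88, interval 1.81 to 1.95) and a 3.43-fold higher level in *Hmga2*-/- MEF (1.78, interval 1.74 to 1.82). The *Hmga2*-/- cultures were 3.04-fold above the *Hmga2*+/+ cultures in Ctrl and 2.83-fold above them under TGFB1. From the lowest to the highest library, *Acta2* spanned 10.4-fold.

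The other smooth muscle actin had similar fold changes at a far lower level. *Actg2* (chromosome 6, minus strand, 83512909 to 83536251) had 0.274, 1.02, 1.03 and 3.65 RPKM in *Hmga2*+/+ Ctrl, *Hmga2*+/+ TGFB1, *Hmga2*-/- Ctrl and *Hmga2*-/- TGFB1, from 20, 76, 76 and 270 reads. The *Hmga2*+/+ TGFB1 and *Hmga2*-/- Ctrl libraries could not be told apart by their counts, and the others could. Its log2 change under TGFB1 was 1.90 (1.17 to 2.69) in *Hmga2*+/+ MEF and 1.82 (1.45 to 2.21) in *Hmga2*-/- MEF. The other *Actg2* transcript, uc009cnr.1, with 12 to 95 reads, had 1.03 (-0.02 to 2.16) and 1.65 (1.05 to 2.30). Its responses in the genotypes differed by 0.62 (-0.53 to 1.78). The actins are close copies of each other, so reads could in principle be assigned to the wrong one. Of 1264 windows of 70 bases in the longest *Actg2* transcript, none was identical to a window of *Acta2*, and the closest differed at 5 bases, while 2 windows matched skeletal muscle actin, *Acta1*, with 2 mismatches. *Actg2* reads amounted to 0.880%, 0.890%, 1.09% and 1.12% of the *Acta2* reads in the 4 libraries. *Acta1* went from 6 to 38 reads in *Hmga2*+/+ MEF and from 30 to 234 in *Hmga2*-/- MEF. Whether any reads were assigned to the wrong actin was not tested.

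Transgelin had the largest TGFB1 response of the 10 genes. *Tagln* (chromosome 9, minus strand, 45929628 to 45936058) had 9.66 RPKM in *Hmga2*+/+ Ctrl, 64.8 in *Hmga2*+/+ TGFB1, 18.1 in *Hmga2*-/- Ctrl and 109 in *Hmga2*-/- TGFB1. The treated libraries of both genotypes lay above the untreated ones, and the gap between the lower treated and the higher untreated library was 1.84 on the log2 scale, beside 0.27 for *Acta2*. The level was 6.71-fold higher under TGFB1 in *Hmga2*+/+ MEF (log2 change 2.75, interval 2.64 to 2.85) and 6.06-fold higher in *Hmga2*-/- MEF (2.60, interval 2.52 to 2.68). Between genotypes it was 1.87-fold higher in *Hmga2*-/- MEF in Ctrl and 1.69-fold higher under TGFB1. Among 25742 genes *Tagln* stood at rank 4341 in the *Hmga2*+/+ Ctrl library and at rank 218 in the *Hmga2*-/- TGFB1 library.

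Calponin differed more between genotypes than with TGFB1. *Cnn1* (chromosome 9, plus strand, 22099253 to 22109221) had 0.938, 1.45, 2.23 and 3.49 RPKM in *Hmga2*+/+ Ctrl, *Hmga2*+/+ TGFB1, *Hmga2*-/- Ctrl and *Hmga2*-/- TGFB1. The untreated *Hmga2*-/- library was thus above the treated *Hmga2*+/+ library, by more than counting error. The log2 change under TGFB1 was 0.63 (0.26 to 1.00) in *Hmga2*+/+ MEF and 0.65 (0.41 to 0.88) in *Hmga2*-/- MEF. The genotype difference was 1.25 (0.91 to 1.59) in Ctrl and 1.27 (1.00 to 1.54) under TGFB1. In these 104 to 392 reads, both responses lay just past the limit of 1.5-fold, at 1.55-fold and 1.57-fold, and their intervals reach below it.

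Caldesmon and *Tpm1* were the most abundant of the 10, and *Cald1* was the one whose level moved least over the libraries. *Cald1* (chromosome 6, plus strand, 34598544 to 34746015) had 323 RPKM in *Hmga2*+/+ Ctrl, 318 in *Hmga2*+/+ TGFB1, 469 in *Hmga2*-/- Ctrl and 432 in *Hmga2*-/- TGFB1. Under TGFB1 its log2 change was -0.02 (-0.05 to 0.01) in *Hmga2*+/+ MEF and -0.12 (-0.14 to -0.09) in *Hmga2*-/- MEF. *Hmga2*-/- MEF had 1.45-fold more in Ctrl and 1.36-fold more under TGFB1, both under the limit. The transcript has 858 bases and ends inside the gene. The longest *Cald1* transcript by exon length, uc009bhk.1 with 4012 bases, starts at another promoter, at position 34709444 of chromosome 6 in place of 34598544. Its levels of 199, 218, 276 and 291 RPKM gave log2 changes of 0.13 under TGFB1 in *Hmga2*+/+ MEF and 0.07 in *Hmga2*-/- MEF. The 6 *Cald1* transcripts thus differ in the sign of small changes, and those whose signs differ between genotypes are listed in the closing observations.

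*Tpm2* (chromosome 4, minus strand, 43513726 to 43523554) had 25.2, 19.9, 35.3 and 30.1 RPKM in *Hmga2*+/+ Ctrl, *Hmga2*+/+ TGFB1, *Hmga2*-/- Ctrl and *Hmga2*-/- TGFB1. Both treated libraries were below their own untreated library, by 0.33 (0.26 to 0.41) on the log2 scale in *Hmga2*+/+ MEF and 0.23 (0.17 to 0.30) in *Hmga2*-/- MEF, beyond counting error and under the limit of 1.5-fold. *Hmga2*-/- MEF had 1.40-fold more in Ctrl and 1.51-fold more under TGFB1. The other *Tpm2* transcripts, uc008sqc.2 and uc008sqd.2, had log2 changes under TGFB1 of -0.27 and -0.35 in *Hmga2*+/+ MEF and of -0.16 and -0.23 in *Hmga2*-/- MEF.

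The myosin light chain gene with the full CArG box printed above was not among the genes called under TGFB1. *Myl9* (chromosome 2, plus strand, 156775464 to 156781657) had 12.7 RPKM in *Hmga2*+/+ Ctrl, 9.67 in *Hmga2*+/+ TGFB1, 19.6 in *Hmga2*-/- Ctrl and 18.0 in *Hmga2*-/- TGFB1. Both *Hmga2*-/- libraries lay above both *Hmga2*+/+ libraries, and their own difference was within counting error. The log2 change under TGFB1 was -0.39 (-0.55 to -0.24) in *Hmga2*+/+ MEF and -0.12 (-0.24 to 0.00) in *Hmga2*-/- MEF. The genotype difference was 1.54-fold in Ctrl and 1.87-fold under TGFB1.

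*Myh11* and *Lmod1*, genes of differentiated smooth muscle, had the lowest levels of the 10. *Myh11* (chromosome 16, minus strand, 14194527 to 14291408) had 0.0440, 0.0270, 0.0540 and 0.0240 RPKM in *Hmga2*+/+ Ctrl, *Hmga2*+/+ TGFB1, *Hmga2*-/- Ctrl and *Hmga2*-/- TGFB1, from 16, 10, 20 and 9 reads over 6549 bases. Every interval of its changes included 0, so no difference was detectable at this depth, although the fold of 0.614 and 0.444 under TGFB1 passed the limit. Of its 6480 windows of 70 bases, 82 matched the abundant non-muscle myosin *Myh9* and 68 matched *Myh10* with at most 2 mismatches, and whether any of its reads belong to those genes was not tested. *Lmod1* (chromosome 1, plus strand, 135324813 to 135368065) had 0.303, 0.0530, 0.543 and 0.348 RPKM, from 67, 12, 121 and 78 reads. The *Hmga2*+/+ TGFB1 library stood apart as the lowest. *Lmod1* was lower under TGFB1 by 2.52 on the log2 scale in *Hmga2*+/+ MEF (1.61 to 3.53) and by 0.64 in *Hmga2*-/- MEF (0.22 to 1.07), and it was the one gene of the 10 whose responses in the genotypes differed by more than 1.5-fold. That difference was 1.87 on the log2 scale (0.90 to 2.85) and rests on the 12 reads of 1 library.

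**Figure D2:**
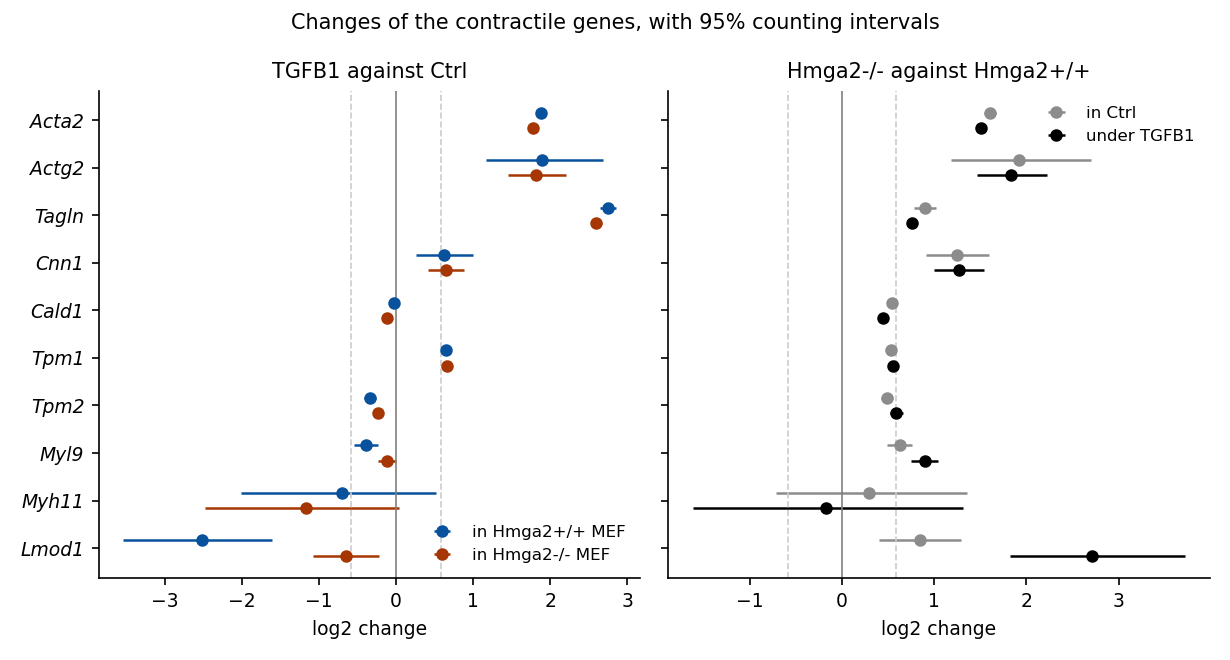
Log2 change of each contractile gene with its interval at the 95% level from counting error, for TGFB1 against Ctrl in each genotype (left) and for *Hmga2*-/- against *Hmga2*+/+ in each treatment (right), with dashed lines at 1.5-fold. *Tagln* lies farthest right on the left side, at 2.75 and 2.60, and on the right side all points except *Myh11* under TGFB1 (-0.17) lie above 0.

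Between genotypes, most of the 10 genes were higher in *Hmga2*-/- MEF. In Ctrl, 6 of 10 were at least 1.5-fold higher in *Hmga2*-/- MEF and 0 were lower, where 11.7% of all genes were higher and 12.3% lower. The 6 were *Acta2*, *Actg2*, *Tagln*, *Cnn1*, *Myl9* and *Lmod1*. The remaining 4 were also above 0 on the log2 scale, namely *Tpm1* (0.54), *Cald1* (0.54), *Tpm2* (0.49) and *Myh11* (0.30, interval -0.71 to 1.36). Under TGFB1, 7 of 10 were at least 1.5-fold higher and 0 lower, where 13.1% of all genes were higher and 11.5% lower, with *Tpm2* at 1.51-fold as the addition, and *Myh11* was the one gene below 0, at -0.17 with an interval that includes 0. The shares are smaller among the 11314 genes that reached 1 RPKM in any library, as all of the 10 did except *Myh11* and *Lmod1*: 2.93% were higher and 2.7% lower in Ctrl, and 3.88% were higher and 2.75% lower under TGFB1. Of the 8 contractile genes that reached it, 5 were higher in Ctrl and 6 under TGFB1, and 0 were lower. With a limit of 2-fold, 3 of the 10 were higher and 0 lower in Ctrl, where 8.45% of all genes were higher and 8.93% lower, and 4 were higher and 0 lower under TGFB1, where 9.08% were higher and 8.32% lower. The median log2 difference of the 10 genes was 0.73 in Ctrl and 0.83 under TGFB1, beside -0.0036 and 0.01 over all genes. The comparisons share libraries: a low *Hmga2*+/+ Ctrl value raises both the TGFB1 response in *Hmga2*+/+ MEF and the genotype difference in Ctrl.

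In 9 of the 10 genes the highest and lowest libraries were one of 2 pairs. *Acta2*, *Actg2*, *Tagln*, *Cnn1* and *Tpm1* were highest in *Hmga2*-/- TGFB1 and lowest in *Hmga2*+/+ Ctrl, by 2.30-fold for *Tpm1* up to 13.3-fold for *Actg2*. *Myl9*, *Tpm2*, *Cald1* and *Lmod1* were highest in *Hmga2*-/- Ctrl and lowest in *Hmga2*+/+ TGFB1, by 1.47-fold for *Cald1* up to 10.2-fold for *Lmod1*, although *Cald1* did not differ beyond counting error between the *Hmga2*+/+ libraries. The longer *Cald1* transcript uc009bhk.1 had the other pair, lowest in *Hmga2*+/+ Ctrl (199 RPKM) and highest in *Hmga2*-/- TGFB1 (291 RPKM). *Myh11* was highest in *Hmga2*-/- Ctrl and lowest in *Hmga2*-/- TGFB1, within counting error. In 7 of the 10 genes the untreated *Hmga2*-/- library was above the treated *Hmga2*+/+ library, and *Acta2*, *Tagln* and *Tpm1* were the exceptions. The TGFB1 response itself was similar in size in both genotypes for the genes that answered. The log2 response in *Hmga2*-/- MEF minus that in *Hmga2*+/+ MEF was -0.10 (-0.18 to -0.02) for *Acta2*, -0.08 (-0.88 to 0.72) for *Actg2*, -0.15 (-0.27 to -0.02) for *Tagln*, 0.02 (-0.40 to 0.44) for *Cnn1* and 0.02 (-0.01 to 0.05) for *Tpm1*. These intervals leave out the spread between cultures, so they do not show that the genotypes respond alike.

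*Tpm1* is spliced in many ways, and the table lists 12 of its transcripts, on the minus strand of chromosome 9 between 67022593 and 67049213. Transcription can begin at exon 1a, which gives the long tropomyosins typical of muscle and stress fibres, or at exon 1b, 5.34 kb further on, which gives the short ones. The last exon is 9d in most cells outside striated muscle, while exons 9a and 9b are used by striated muscle and 9c mainly by the brain. Of the 12 transcripts, 6 end with exon 9d, and the others with exons 9a and 9b, with a long form of 9a or with 9c. In RPKM, transcripts with exon 9d ranged from 285 to 338 in *Hmga2*+/+ Ctrl, and the transcript with the longest gene body, uc009qfp.1 (long start, exon 9d), had 325, 509, 472 and 749 RPKM in *Hmga2*+/+ Ctrl, *Hmga2*+/+ TGFB1, *Hmga2*-/- Ctrl and *Hmga2*-/- TGFB1. That placed *Tpm1* at rank 26, 22, 17 and 16 of 25742 genes. Its log2 change was 0.65 (0.63 to 0.67) under TGFB1 in *Hmga2*+/+ MEF and 0.67 (0.65 to 0.68) in *Hmga2*-/- MEF. All 12 share most of their exons, so a read in a shared exon enters each of them and their values are not independent.

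**Figure D3:**
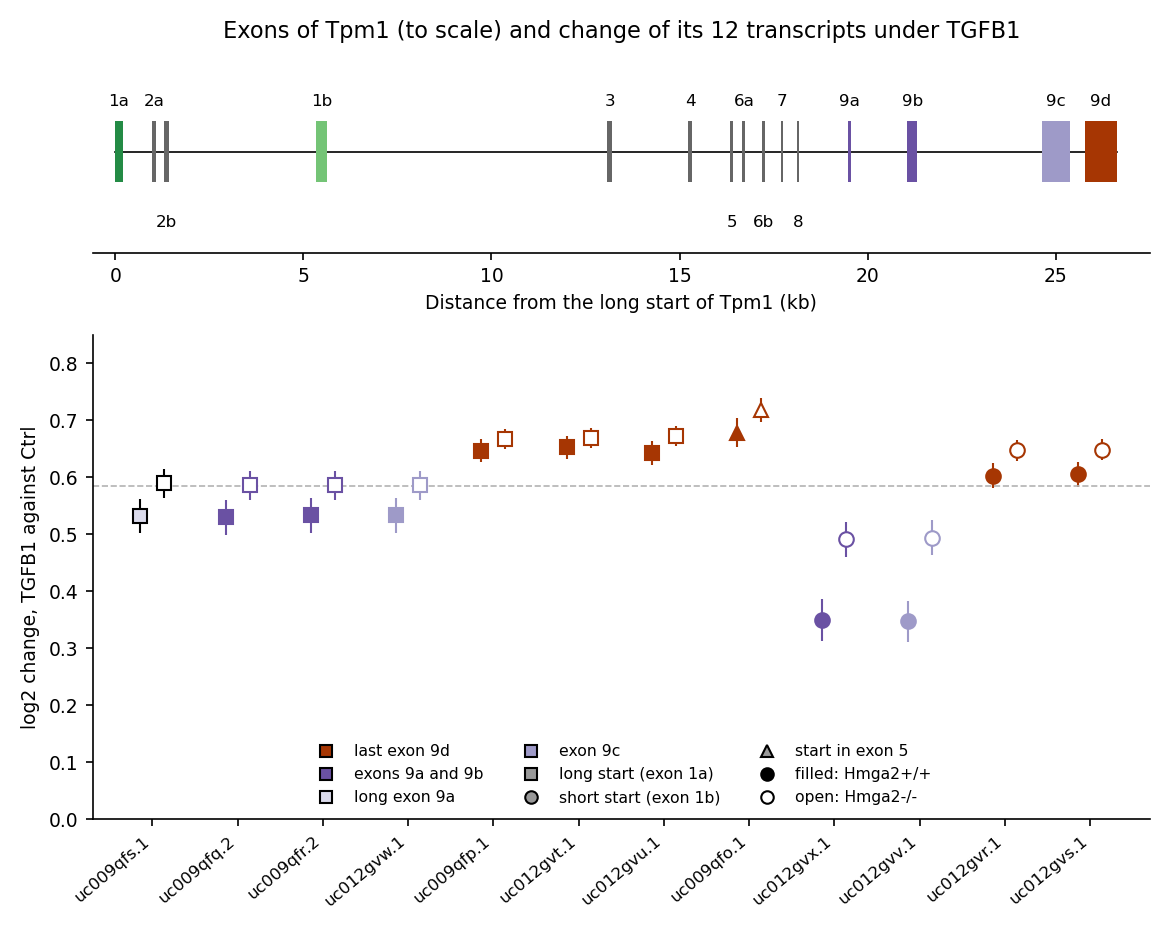
Top, the exons of *Tpm1* to scale by distance in kb from the long start. Bottom, the log2 change of the 12 transcripts under TGFB1 with counting intervals, filled for *Hmga2*+/+ and open for *Hmga2*-/- MEF, with the dashed line at 1.5-fold: all 6 transcripts with exon 9d lie above it, and those with the short start and without exon 9d lie lowest, at 0.35 in *Hmga2*+/+ MEF.

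The fold of a *Tpm1* transcript under TGFB1 went with its last exon and then with its start. Reads of shared exons enter all these folds. The short-start transcripts with exon 9c (uc012gvv.1) and with exons 9a and 9b (uc012gvx.1) had 10625 reads each in *Hmga2*+/+ Ctrl. Such values do not show that forms with exons 9a, 9b or 9c were expressed or responded by themselves. In *Hmga2*+/+ MEF all 6 transcripts with exon 9d were at least 1.5-fold higher under TGFB1, from 1.52-fold to 1.60-fold, and 0 of the 6 without it, from 1.27-fold to 1.45-fold. This split of the calls depends on the scaling: after a median-ratio rescaling of the libraries, 10 of the 12 were past 1.5-fold in *Hmga2*+/+ MEF, 4 without exon 9d among them. Among those without exon 9d, the short start gave a log2 change of 0.35 for both uc012gvv.1 and uc012gvx.1, and the long start 0.53 for uc009qfq.2, uc009qfr.2, uc009qfs.1 and uc012gvw.1. In *Hmga2*-/- MEF 10 of 12 were past 1.5-fold, the 4 without exon 9d among them with log2 changes of 0.59, at the limit itself. Between genotypes in Ctrl no transcript reached 1.5-fold, with folds from 1.37 to 1.46. Under TGFB1 the 6 transcripts without exon 9d did, at 1.51-fold to 1.52-fold, and those with it lay at 1.46-fold to 1.48-fold. The steps around the limit were small.

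Subtracting transcripts that differ in their last exons or in their start gave the net difference in reads between the exons exchanged, not the reads of any exon by itself. Exon 9d, from 67022593 to 67023441, held between 15907 and 16284 reads more than exons 9a and 9b together in *Hmga2*+/+ Ctrl, with the range coming from which form of exon 6 the compared transcripts carry. The excess was 27367 to 27879 reads in *Hmga2*+/+ TGFB1, 23263 to 23810 in *Hmga2*-/- Ctrl and 39071 to 39873 in *Hmga2*-/- TGFB1. It was 1.68-fold to 1.69-fold higher under TGFB1 in *Hmga2*+/+ MEF after scaling to depth, and 1.66-fold to 1.67-fold higher in *Hmga2*-/- MEF. Exons 1a and 2b of the long start held 3424 to 3801 reads more than exon 1b in *Hmga2*+/+ Ctrl, 6931 to 7443 in *Hmga2*+/+ TGFB1, 5995 to 6530 in *Hmga2*-/- Ctrl and 10463 to 11266 in *Hmga2*-/- TGFB1. This excess was 1.92-fold to 1.98-fold higher under TGFB1 in *Hmga2*+/+ MEF and 1.72-fold to 1.74-fold higher in *Hmga2*-/- MEF. Being a net difference, this fold cannot be set beside the folds of whole transcripts. With the short start, the transcript that ends with exon 9c had at most 48 reads more, or 23 fewer, than the one ending with 9a and 9b. No counting interval is given for such differences, because the same reads enter both transcripts.

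The genes nearest to *Acta2* in their pattern over the 4 libraries were *Coch*, *Ccn1*, *Cd80*, *Fhdc1* and *Sfn*, among 7434 other genes that reached 5 RPKM in any library. Likeness was the root mean square distance between log2 RPKM values, each centred on the gene's own mean over the 4 libraries. *Coch*, cochlin of the extracellular matrix, lay at a distance of 0.27, with 4.43, 11.5, 12.2 and 29.2 RPKM in *Hmga2*+/+ Ctrl, *Hmga2*+/+ TGFB1, *Hmga2*-/- Ctrl and *Hmga2*-/- TGFB1. *Ccn1*, a secreted matricellular protein, lay at 0.30, with 32.5, 103, 61.5 and 207 RPKM. The other three lay at 0.32 to 0.33. Among the contractile genes *Tagln* was the nearest, at rank 35 with a distance of 0.56, followed by *Tpm1* at rank 231 and *Cald1* at rank 2289, whereas *Actg2* and *Cnn1* were below 5 RPKM in all libraries and were not ranked. With 4 libraries, many genes can lie close by the choice of the measure alone.

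Other genes of the contractile apparatus gave a mixed picture. Of 21 other actin, tropomyosin, myosin, calponin, transgelin and tropomodulin family genes, 19 were above 0. Of these, 3 were higher and 4 lower under TGFB1 in *Hmga2*+/+ MEF, where 16.3% of all genes were higher and 26.8% lower. In *Hmga2*-/- MEF 6 were higher and 4 lower, where 17.9% of all genes were higher and 25.6% lower. The median log2 changes of these genes were 0.24 and 0.43. Their most abundant members were *Actb*, with 787, 1111, 981 and 1478 RPKM in *Hmga2*+/+ Ctrl, *Hmga2*+/+ TGFB1, *Hmga2*-/- Ctrl and *Hmga2*-/- TGFB1, and *Tpm4*, a short tropomyosin, with 170, 293, 213 and 371 RPKM. *Tpm4*, *Tagln2* and *Acta1* were past 1.5-fold in both genotypes, with *Tagln2* at 1.92-fold and 2.25-fold. *Myl12b*, a light chain like *Myl9*, was lower in both, from 49.3 to 15.1 RPKM in *Hmga2*+/+ MEF and from 50.3 to 11.0 RPKM in *Hmga2*-/- MEF. The light chain *Myl12a* went the other way, within 1.5-fold, from 55.3 to 73.5 RPKM and from 69.3 to 94.9 RPKM. *Actc1*, cardiac actin, and *Lmod3* were at 0 in all libraries. The counts under TGFB1 include *Lmod2*, called lower in *Hmga2*+/+ MEF on 1 and 0 reads and higher in *Hmga2*-/- MEF on 1 and 3 reads. Between genotypes in Ctrl, 2 of the 19 were higher and 0 lower, with a median of 0.29, where 11.7% of all genes were higher and 12.3% lower.

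Most regulators of contraction stayed within 1.5-fold under TGFB1, though *Mylk* and *Ppp1r14a*, both under 1 RPKM, were lower in both genotypes. Of 15 genes, 0 were higher and 2 lower in *Hmga2*+/+ MEF under TGFB1, where 16.3% of all genes were higher and 26.8% lower. In *Hmga2*-/- MEF 0 were higher and 3 lower, where 17.9% of all genes were higher and 25.6% lower. The medians were 0.06 and -0.02. Among those lower in *Hmga2*-/- MEF was *Kcnmb1*, on 1 and 0 reads. The small GTPase gene *Rhoa* had 134, 159, 176 and 173 RPKM, and its kinases *Rock1* and *Rock2* were within 1.5-fold in every comparison. *Mylk*, the kinase of myosin light chains, was low and went from 0.791 to 0.131 RPKM in *Hmga2*+/+ MEF and from 0.399 to 0.0700 RPKM in *Hmga2*-/- MEF. *Ppp1r14a*, an inhibitor of myosin phosphatase, went from 0.476 to 0.10 RPKM and from 0.775 to 0.134 RPKM, on 14, 3, 23 and 4 reads. *Acta2* and *Tagln* on the one hand and the kinase of the myosin light chain on the other thus lay on opposite sides of 0.

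Among 18 transcription factors of the smooth muscle programme, 17 were in the table, *Foxf1* not being matched to a transcript of its own. *Srf* had 4.16, 4.55, 4.67 and 6.86 RPKM in *Hmga2*+/+ Ctrl, *Hmga2*+/+ TGFB1, *Hmga2*-/- Ctrl and *Hmga2*-/- TGFB1, and its cofactor *Mrtfa* 7.38, 5.39, 7.95 and 5.77 RPKM. Both were within 1.5-fold in every comparison except *Srf* in *Hmga2*-/- TGFB1 against *Hmga2*+/+ TGFB1, at 1.51-fold. *Myocd*, myocardin, the cofactor that sets the smooth muscle programme, was at 0 to 0.0170 RPKM. In *Hmga2*+/+ MEF 0 of the 17 were higher and 2 lower under TGFB1, where 16.3% of all genes were higher and 26.8% lower. In *Hmga2*-/- MEF 2 were higher, *Myocd* and *Nkx2-5* at no more than 0.0230 RPKM, and 2 lower. There, 17.9% of all genes were higher and 25.6% lower. The mesenchymal factor *Prrx1* was the most abundant, at 81.4, 58.1, 104 and 57.2 RPKM.

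Proteins of stress fibres and adhesions included genes that were higher under TGFB1 in both genotypes. Of 18 genes, 4 were higher and 3 lower under TGFB1 in *Hmga2*+/+ MEF, where 16.3% of all genes were higher and 26.8% lower. In *Hmga2*-/- MEF 7 were higher and 2 lower, where 17.9% of all genes were higher and 25.6% lower. The medians were 0.30 and 0.40. *Des* is counted as lower in both, on 3 and 0 reads and on 9 and 4 reads. The 4 genes higher in *Hmga2*+/+ MEF were also past 1.5-fold in *Hmga2*-/- MEF. They were filamin *Flna* at 1.93-fold and 2.03-fold, alpha-actinin *Actn1* at 1.63-fold and 2.09-fold, *Pdlim7* at 1.90-fold and 2.19-fold, and *Fhl2* at 2.13-fold and 2.47-fold. *Svil*, supervillin, was lower in both, at 0.503-fold and 0.468-fold. In Ctrl 4 of the 18 were higher in *Hmga2*-/- MEF and 0 lower, and under TGFB1 6 were higher and 0 lower. *Zyx*, *Fhl1*, at 21.2, 31.0, 37.8 and 63.8 RPKM, and *Nexn*, at 8.12, 12.1, 13.4 and 21.6 RPKM, were past the limit in both. *Des* was past it in both too, on 0 to 9 reads per library. Of all genes, 11.7% were higher and 12.3% lower in Ctrl, and 13.1% were higher and 11.5% lower under TGFB1.

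**Figure D4:**
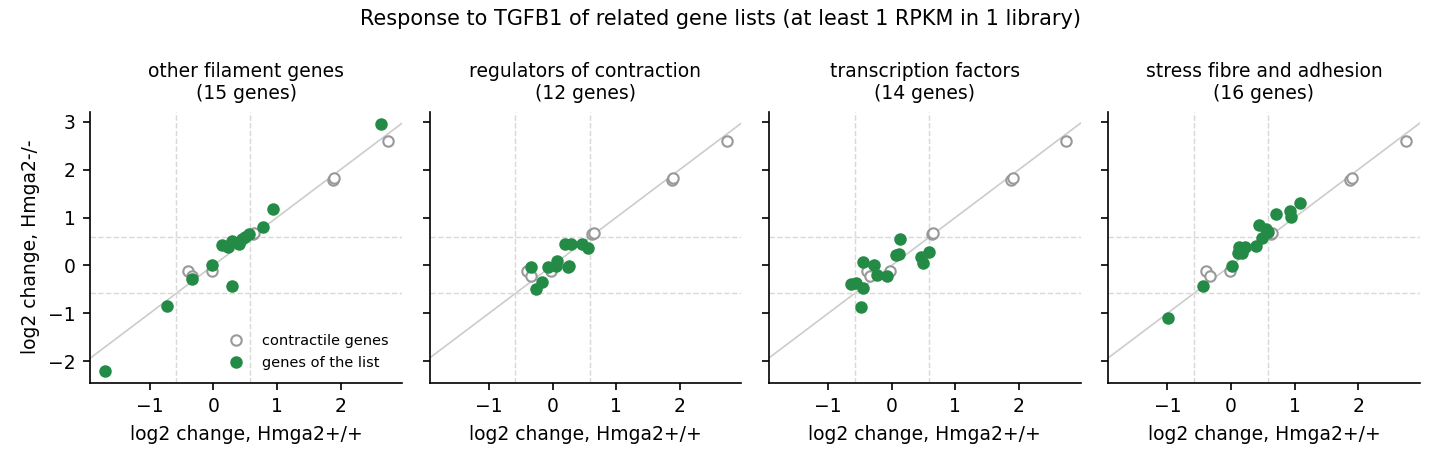
Log2 change under TGFB1 in *Hmga2*+/+ MEF (horizontal) against *Hmga2*-/- MEF (vertical) for genes that reached 1 RPKM in any library, 1 panel per list, green for the 15, 12, 14 and 16 genes of the list and open circles for the contractile genes. Dashed lines mark 1.5-fold and the solid line equal change; the 12 regulators lie within 1.5-fold on both axes, and *Tagln* (2.75 and 2.60) is the open circle farthest to the upper right.

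Markers of other cells that carry contractile genes were read beside these results. Pericyte and vascular smooth muscle markers had summed levels of 16.3 RPKM in *Hmga2*+/+ Ctrl, 28.8 in *Hmga2*+/+ TGFB1, 16.3 in *Hmga2*-/- Ctrl and 40.9 in *Hmga2*-/- TGFB1. The sum was thus higher in both treated libraries. Of 7 detected markers, 4 were higher and 1 lower in *Hmga2*+/+ MEF, where 16.3% of all genes were higher and 26.8% lower. In *Hmga2*-/- MEF 4 were higher and 2 lower, where 17.9% of all genes were higher and 25.6% lower. The lower ones were *Des* and, in *Hmga2*-/- MEF, *Abcc9*, on at most 9 reads. *Rgs5* had the largest rise, from 13 to 65 reads and from 5 to 84 reads, which is 4.88-fold and 16.4-fold, at no more than 0.361 RPKM. *Cspg4*, the most abundant, went from 8.78 to 17.5 RPKM and from 8.85 to 23.6 RPKM, and *Mcam* was 1.54-fold and 2.41-fold higher, while *Des* was at or under 0.0520 RPKM and *Kcnj8* at 0. Skeletal and cardiac muscle markers summed to between 0.802 and 1.77 RPKM, with *Myod1*, *Myog*, *Myf5*, *Myh8* and *Ckm* at 0 in all libraries. Endothelial markers summed to 3.89, 4.86, 7.12 and 8.16 RPKM in the same order of libraries. Within that sum *Tek* went from 2.75 to 0.330 RPKM in *Hmga2*+/+ MEF and from 5.65 to 0.686 RPKM in *Hmga2*-/- MEF, and *Kdr* the other way, from 1.11 to 4.46 RPKM and from 1.46 to 7.39 RPKM, while *Pecam1*, *Cdh5* and *Emcn* were at or under 0.0480 RPKM. Leukocyte markers summed to at most 1.66 and epithelial markers to at most 5.76 RPKM. The part of these markers in the values of the contractile genes was not tested.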

How the data were processed

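Total RNA of the 4 MEF conditions had been sequenced as strand-specific single reads of 75 bases. According to the methods and the submitters' processing notes, reads were trimmed with Trimmomatic, mapped to mm10 with HISAT2 2.1.0 and counted with HOMER on the annotated strand. The authors deposited RPKM for UCSC known transcripts, 1 column for each condition. The methods speak of duplicates within a single experiment, and whether a column pools them is not given in the sources used here. The counted feature is exons in the file header and genes in the methods. The transcript length was deposited by the authors beside the RPKM values, in bases, and is the other value used.

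Transcripts were named by GENCODE vM21 genes that hold at least 50% of their span on the same strand, which named 57708 of 63759 (90.5%). Mapped reads were inferred as the number at which RPKM times length came out as whole reads on short transcripts. Reads were then recovered as RPKM times length times mapped reads. That 100% of 1585 to 1610 low values per library lay within 0.1 of a whole read is what this number was chosen for. It is therefore no separate check. Transcripts under 10 reads made up 42.2% to 43.4% of each library. Fold changes used RPKM with 0 set to 0.001. Intervals of ratios are exact binomial (Clopper-Pearson), those of response differences approximate. Since the values are RPKM without replicates, no test was run. Members, lists and the rule for named genes (the 10 members, all *Tpm1* transcripts, the most abundant 6 of each list and those past 1.5-fold in both genotypes) were chosen with earlier results of these data known; not every such list gene is named, and a further gene fixed as a check of the TGFB1 treatment is not reported here. *Srf*, *Mrtfa*, *Myocd*, *Lmod3*, *Myl12a* and *Kcnmb1* were named after their values were seen. Exon structures came from GENCODE by position and length, and promoters from RefSeq. Steps were tested on simulated reads. Python 3.11.15, pandas 2.3.3, numpy 2.4.6, SciPy 1.17.1, Biopython 1.88 and matplotlib 3.10.9 were used.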

Additional observations from a re-analysis of the deposited data

Results flagged for a closer look

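Some results had opposite directions in the genotypes or treatments compared, each with 1 library per condition, and these differences were not tested. Among *Cald1* transcripts, the log2 response to TGFB1 was above 0 in *Hmga2*+/+ MEF and below 0 in *Hmga2*-/- MEF for uc009bhl.1 (0.09 and -0.08, a difference of -0.17), uc057bwk.1 (0.57 and -0.08, a difference of -0.66) and uc057bwl.1 (0.16 and -0.11, a difference of -0.28). The intervals include 0 for uc057bwl.1 in both genotypes and for uc057bwk.1 in *Hmga2*-/- MEF. For uc057bwk.1, which lies between 34635197 and 34639516 of chromosome 6 and stayed under 5 RPKM, the genotype difference was 0.66 in Ctrl and -0.00038 under TGFB1, again -0.66 apart. *Myh11* was above 0 in *Hmga2*-/- against *Hmga2*+/+ MEF in Ctrl (0.30) and below 0 under TGFB1 (-0.17), a difference of -0.47 for both uc007yhd.2 and uc007yhe.2, which rest on 9 to 20 reads.

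Among the abundant genes of the lists, *Myl6*, the essential light chain of myosin II, differed most. Its log2 response was 0.30 in *Hmga2*+/+ MEF and -0.43 in *Hmga2*-/- MEF, a difference of -0.72, and its levels were 113, 138, 164 and 122 RPKM in *Hmga2*+/+ Ctrl, *Hmga2*+/+ TGFB1, *Hmga2*-/- Ctrl and *Hmga2*-/- TGFB1. The response also changed sign for *Rhoa* (difference -0.27), *Ppp1cb* (-0.0633) and *Tln1* (-0.0237), where the interval of the response in *Hmga2*-/- MEF includes 0 for all 3 and that in *Hmga2*+/+ MEF for *Tln1*. *Vim*, added after its values were seen, changed sign beyond both intervals, from 0.22 to -0.11 (difference -0.33). The genotype difference changed sign between Ctrl and TGFB1 for *Myl6* (difference -0.72), *Cnn3* (0.30), *Ppp1cb* (-0.0633), *Rhoc* (0.25), *Prrx1* (-0.38), *Tead1* (-0.45) and *Smad3* (0.19). Of these, an interval that includes 0 holds for *Ppp1cb* and *Prrx1* under TGFB1 and for *Smad3* in Ctrl.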

How the results depend on the processing

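No paired analysis was possible because each condition has 1 library, and no library could be left out. With a limit of 2-fold, as set beside all genes above, 3 genes were higher and 1 lower under TGFB1 in *Hmga2*+/+ MEF, 3 higher and 1 lower in *Hmga2*-/- MEF, and 3 and 4 higher in *Hmga2*-/- MEF in Ctrl and under TGFB1. The count of genes lower under TGFB1 was 0 in both genotypes once 1 RPKM was added to all values, 1 in *Hmga2*+/+ and 0 in *Hmga2*-/- MEF once 0.1 RPKM was added, and 0 in both where at least 1 RPKM in 1 library was asked, since *Myh11* and *Lmod1* are below 1 RPKM. The higher calls of *Cnn1* under TGFB1 ended with 1 RPKM added (0.34 and 0.48), and in *Hmga2*+/+ MEF with 0.1 RPKM added (0.58). With 1 RPKM added, *Lmod1* was no longer higher in *Hmga2*-/- MEF (0.24 in Ctrl, 0.36 under TGFB1), nor *Tpm2* under TGFB1 (0.57). With the transcript of highest mean, 1 gene was lower in *Hmga2*-/- MEF. With libraries rescaled by the median ratio, which moved the log2 response by 0.09 in *Hmga2*+/+ MEF and 0.05 in *Hmga2*-/- MEF, 10 *Tpm1* transcripts in place of 6 were past 1.5-fold in *Hmga2*+/+ MEF, and the *Cald1* change there went from -0.02 to 0.07. Of 64 counts under alternatives 50 stayed within 1.5 times the reported count. Of 222 log2 values of single genes, 194 stayed within the counting interval and 0 of those past 1.5-fold changed sign. After 1 RPKM was added, the *Lmod1* response difference was 0.11 in place of 1.87. Depth limits *Myh11*, *Lmod1* and *Actg2*. The counts of the gene lists were not repeated under these alternatives, and some of their calls rest on a library with 0 reads.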
